A study of Mus musculus with 2 samples.

Results

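General capillary endothelial cells are, with aerocytes, the cells that line the capillaries of the lung alveolus. Here they were the cell barcodes of droplet sequencing that met a rule on raw UMIs (unique molecular identifiers, which count captured transcripts). A member had at least 200 genes, at most 20% mitochondrial UMIs and no UMI of Ptprc, the leukocyte phosphatase CD45. It had at least 2 UMIs over Gpihbp1, Plvap and Aplnr. That sum had to exceed the sum of the aerocyte genes Ca4, Ednrb and Apln, and the sum of the venous and large vessel genes Vwf, Slc6a2 and Ackr3. The lymphatic genes Mmrn1, Prox1 and Reln together had to stay under 2 UMIs. The rule found 3517 members among 18031 barcodes that passed the filters on genes and mitochondrial UMIs.

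The study compared lungs after hepatic ischemia-reperfusion (HIR), in which blood flow to the liver is blocked and then restored, with lungs after sham surgery. Both libraries are labelled wild type, strain, age and number of animals are not given in the sources used here, and the HIR library is labelled 6 hours, while the sham library carries no time. The minced lungs were dissociated with enzymes and freed of red cells, and there was 1 library per group. Hence nothing was tested against replicate error, and every difference below describes these 2 libraries.

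The alveolar wall holds a pair of capillary cell types. General capillary cells are known as the repair and progenitor pool of the bed, and they carry GPIHBP1, which anchors lipoprotein lipase, PLVAP, the protein of the diaphragms that span endothelial pores and caveolae, and the apelin receptor APLNR. Aerocytes are large thin cells specialised for gas exchange and make the ligand apelin. Capillary endothelium also holds the junctions that keep plasma in the vessel, clears serotonin and adenosine from the blood, and keeps blood from clotting.

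The HIR library held 50801778 UMIs over 9499 barcodes and the sham library 59566745 UMIs over 10719 barcodes. All 32883 features carry rat Ensembl identifiers (prefix ENSRNOG), whereas the labels name the mouse, so symbols are those of the files and levels were compared between libraries gene by gene. The libraries shared 24 barcodes, and none of these was a member in both. Members numbered 1593 in the HIR library, 18.5% of kept barcodes (95% interval 17.7 to 19.4), and 1924 in the sham library, 20.4% (19.6 to 21.2). All intervals here are exact and cover counting error only. They were 66.1% and 68.7% of the barcodes that met any of the 4 endothelial rules, written alike for aerocytes, venous or large vessels and lymphatics. Among barcodes without Ptprc, the members were 29.2% (28.0 to 30.4) of the HIR library and 30.2% (29.0 to 31.3) of the sham library. Other immune barcodes, all those with Ptprc that are no B cells, made up 31.9% and 26.6% of the HIR and sham libraries. Members had a median of 2744 UMIs and 1293 genes in the HIR library and 3079 UMIs and 1424.5 genes in the sham library.

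A share of the members also held RNA of another cell type. A member was called mixed if it had at least 5 UMIs of defining alveolar type 1, alveolar type 2, fibroblast or mural genes, or at least 10 of the neutrophil genes S100a8 and S100a9, a criterion chosen after the data were seen. Mixed barcodes were 226 of the HIR members (14.2%) and 248 of the sham members (12.9%). They held 32.7% of the members' UMIs in the HIR library and 34.99% in the sham library, and the doublet caller Scrublet marked 49.1% and 73.8% of them, against 3.07% and 3.70% of the other members. The kinds differed between the libraries. Fibroblast genes marked 70 HIR and 156 sham members, alveolar type 1 genes 105 and 104, alveolar type 2 genes 35 and 46, mural genes 24 and 43, and neutrophil genes 66 and 4. Values are therefore given over all members and over the 1367 HIR and 1676 sham members that were not mixed.

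The rule used Plvap above all, which gave 88.2% of the summed UMIs of HIR members and 90.4% of those of sham members. The sum had a median of 19 UMIs (quartiles 11 and 29) in HIR members and 28 (17 and 42) in sham members. Plvap stood at 4793 CPM (counts per 1000000 UMIs of the members) in the HIR library and 6068 CPM in the sham library, Gpihbp1 at 263 and 311 CPM, and Aplnr at 377 and 335 CPM. These levels chose the members and are a description, as are those of the other genes of the rule. At the edge, 46 HIR and 41 sham members had a sum of exactly 2. Of these, 63.0% and 56.1% were mixed, and they held the junction gene Cdh5 at 78.8 and 44.5 CPM, while members with a sum of 11 to 20 held it at 937 and 1319 CPM. Just outside, barcodes with a sum of 1 numbered 153 and 205 and held Cdh5 at 16.9 and 8.57 CPM.

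**Figure D1:**
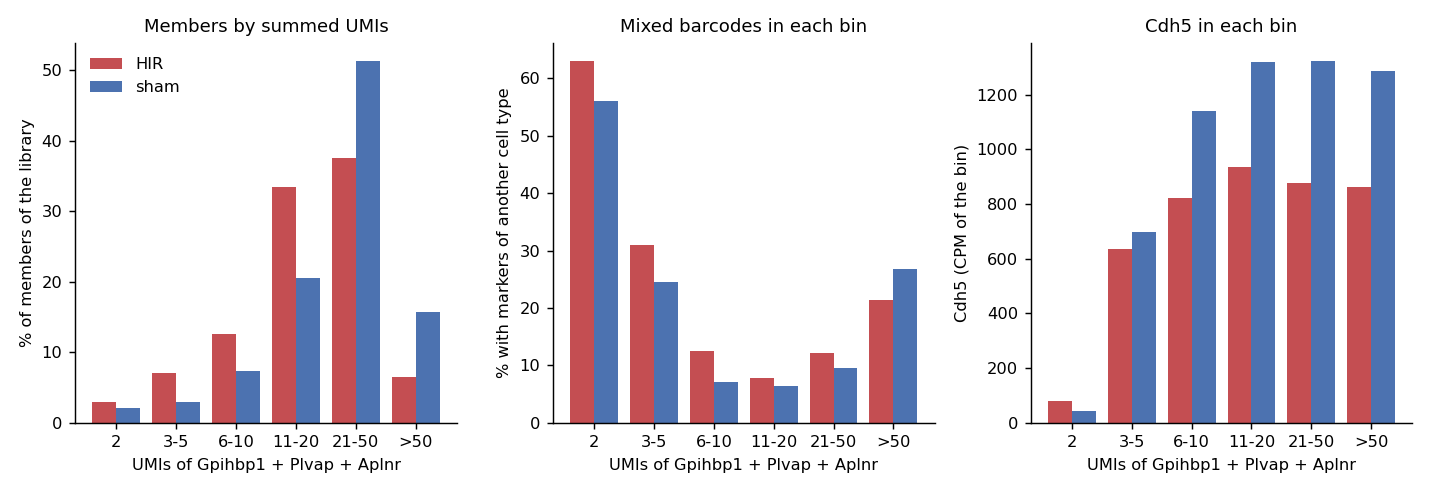
Members by the summed UMIs of Gpihbp1, Plvap and Aplnr (x axis, binned) in the HIR library (red) and the sham library (blue): the share of each library's members, the share that was mixed, and the CPM of Cdh5 in the bin. Members with a sum of 2 were mostly mixed (63.0% and 56.1%) and held little Cdh5, and the sham members lay at higher sums.

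The label was checked against markers that the rule did not use. In unmixed members, Cdh5, the cadherin of endothelial junctions, stood at 1056 CPM in the HIR library and 1566 CPM in the sham library, and Cldn5, the claudin of tight junctions, at 3851 and 3074 CPM. The incretin receptor gene Glp1r stood at 514 and 488 CPM in unmixed members, against 36.0 and 35.6 CPM in aerocyte barcodes and 50.6 and 47.5 CPM in venous or large vessel barcodes, picked by the matching rules for their own genes. The genes that set members apart from both other vessel types in both libraries were led by Acer2, a ceramidase, which was in each comparison at least 6.96-fold higher than in either, and Glp1r, at least 6.72-fold. These folds and those that follow are over all members, with 10 CPM added to both values. The ranked genes were picked by the size of these same folds, so the folds are a description and no check of the label. Next were Nostrin (5.14-fold), which binds nitric oxide synthase, the stem cell factor receptor Kit (4.46-fold) and the lipase gene Lpl (4.41-fold). Then came the connexin gene Gja4 (3.26-fold), the arterial ephrin Efnb2 (3.10-fold), the receptor Gpr182 (2.87-fold), Calcrl (2.66-fold), the receptor for adrenomedullin, Bst2 (2.62-fold), and Eng (2.54-fold), a coreceptor of TGF-beta ligands. AC141102.1, an unnamed locus, was at 2.63-fold. The compared barcodes also held RNA of other cells, given for HIR and sham. Fibroblast markers summed to 8490 and 17866 CPM in venous or large vessel barcodes (880 and 1617 in all members). Mural markers summed to 8002 and 9381 CPM in aerocyte barcodes (466 and 437 in all members). Endothelial transcription factors summed to 3206 and 3129 CPM in aerocyte barcodes (6164 and 6213 in all members). The part of this in the folds was not tested. Defining genes of B and T cells were low, with a summed 18.2 CPM in unmixed HIR members and 26.9 CPM in unmixed sham members over 8 genes. The rule left out every barcode with a UMI of the leukocyte gene Ptprc, so this level is a description and no check of the label.

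**Figure D2:**
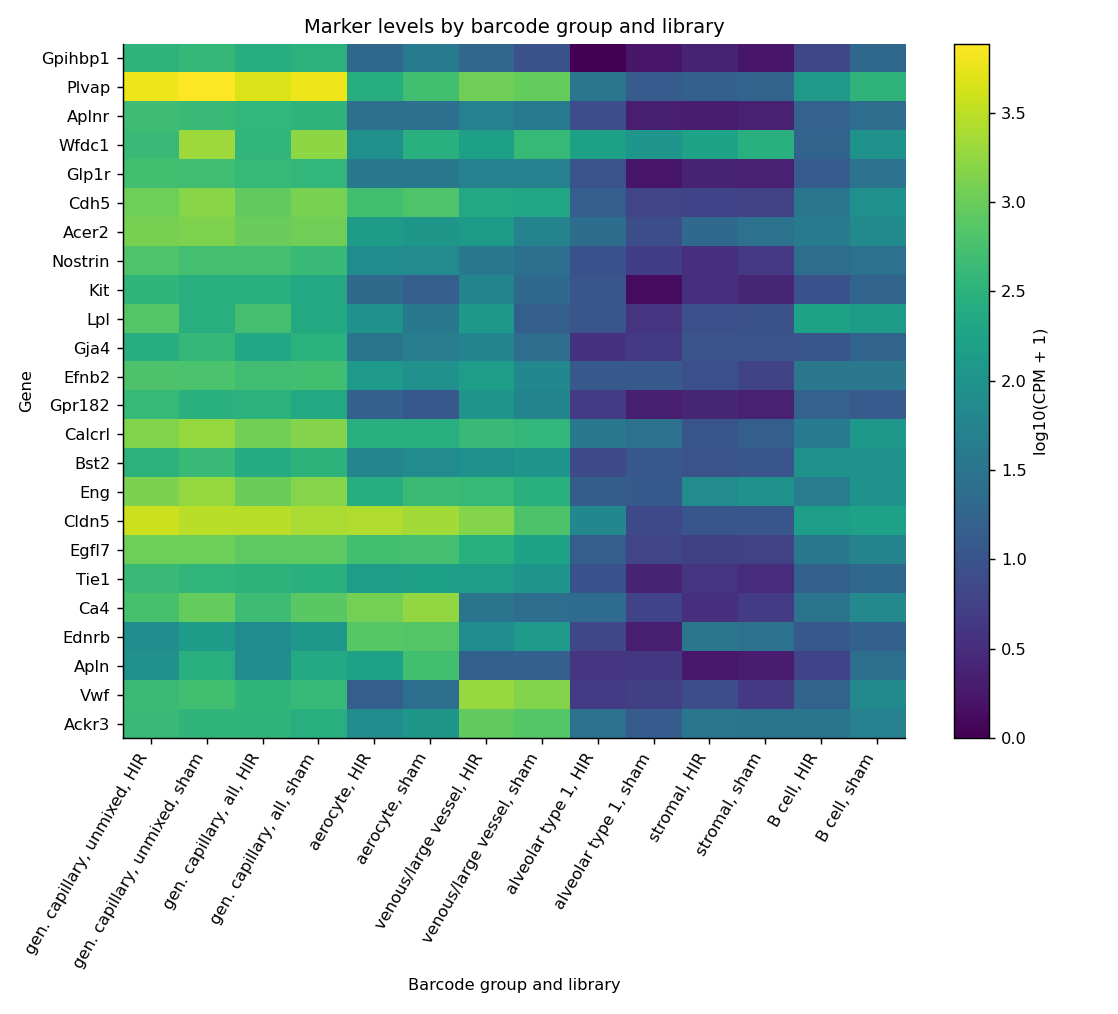
Level of marker genes (rows, log10 of CPM + 1) by barcode group (columns), with the HIR library left of the sham library in each pair. The rule genes Gpihbp1, Plvap and Aplnr were high in general capillary barcodes, as was Glp1r, which the rule did not use. Acer2, Nostrin and Kit, picked by their folds over the other vessel types, were high there too. Wfdc1 was lower in the HIR library.

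Most of the transcriptome differed little between the libraries. Of 5998 features measured in members (at least 20 CPM in either library and 20 UMIs over both), 51 were over 2-fold higher in the HIR library, 0.85% of those measured, and 67 over 2-fold lower, 1.12%, on log2 ratios with 10 CPM added to both values. The median log2 ratio was -0.00. In unmixed members 55 of 5837 (0.942%) were over 2-fold higher and 28 (0.48%) over 2-fold lower, so the lower side depended on the mixed barcodes. Among the genes furthest apart, picked by size of the ratio, the higher ones with little dependence on mixed barcodes were Slc43a3, Nfkbia, Xdh, Cebpd, Arl4a, Ddit4, Il6st, Lpl and Tf.

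**Figure D3:**
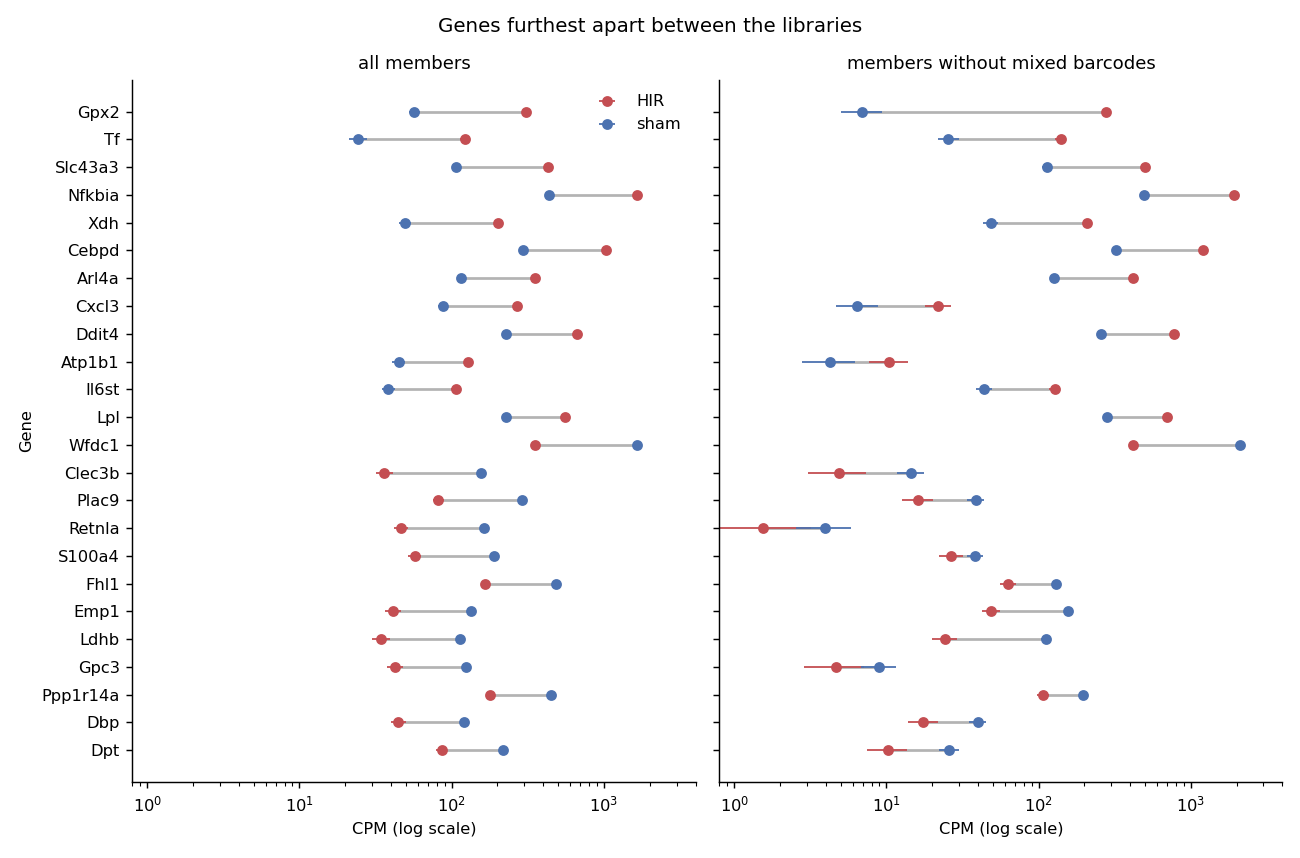
CPM (log axis) of the named genes in the HIR library (red) and the sham library (blue) in all members (left) and in members without mixed barcodes (right). Bars are 95% counting intervals. Gpx2 was 309 and 57.0 CPM over all members and 277 and 6.93 CPM without mixed barcodes, while Clec3b, Retnla and Cxcl3 had low levels once mixed barcodes were left out.

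Most genes of the NF-kB and interleukin 6 lists were higher in HIR members. Nfkbia (ENSRNOG00000007390), which codes for the inhibitor that holds NF-kB in the cytoplasm and that NF-kB itself induces, stood at 1643 CPM in HIR members and 433 CPM in sham members, 3.79-fold (3.66 to 3.93) higher. Without mixed barcodes it was at 1920 and 491 CPM, 3.91-fold (3.75 to 4.07) higher. Of the NF-kB list, 17 of 18 measured genes were higher in unmixed HIR members and 1 was lower, with a median log2 ratio of 0.46, against -0.01 for all features. Other genes of the list were Zfp36, which destabilises cytokine transcripts, at 477 CPM in HIR and 246 CPM in sham members, the kinase Map3k8 at 77.4 and 46.0 CPM, and the adhesion ligand Icam1 at 139 and 103 CPM. Cebpd, a C/EBP transcription factor that inflammatory cytokines induce (ENSRNOG00000050869), was at 1198 and 323 CPM in unmixed members, 3.71-fold (3.52 to 3.90) higher. Il6st, the shared receptor chain of the interleukin 6 family, was at 128 and 44.0 CPM, 2.90-fold (2.51 to 3.36) higher, and Lifr, its partner for leukemia inhibitory factor, at 159 and 91.1 CPM. Of this family's list, 11 of 12 measured genes were higher, with a median of 0.45, and Timp1 was lower at 186 and 233 CPM.

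Genes that glucocorticoids induce were mostly higher too. Of 24 measured in unmixed members, 21 were higher and 3 lower, 9 of them over 2-fold higher, against 0.942% of all measured features, with a median log2 ratio of 0.47. This list holds Nfkbia, Cebpd and Zfp36 as well, so the counts overlap. Ddit4 (ENSRNOG00000057078), which curbs the kinase mTORC1, was at 778 CPM in HIR members and 259 CPM in sham members, 3.01-fold (2.84 to 3.19) higher, and the cell cycle inhibitor Cdkn1a at 67.7 and 11.8 CPM. The metallothioneins, small metal-binding proteins, had the largest ratios of the list, with Mt1 at 196 and 22.4 CPM and Mt2A at 97.4 and 6.78 CPM. Over all members Mt1 was at 187 and 128 CPM, a log2 ratio of 0.51 in place of 2.67, and alveolar type 2 barcodes held it at 317 and 987 CPM. B cell barcodes held Mt1 at 1218 and 605 CPM and other immune barcodes at 884 and 825 CPM. The part of free RNA in its ratio was not tested. Tsc22d3, the anti-inflammatory leucine zipper GILZ, was at 516 and 547 CPM and the receptor gene Nr3c1 at 92.1 and 94.6 CPM in unmixed members. Of the 3 lower genes, Tsc22d3 and Nr3c1 lay close to level and Foxo1 was at 31.1 and 42.9 CPM. Hsd11b1, which regenerates active glucocorticoid, was at 65.7 and 147 CPM over all members, but at 22.0 and 20.5 CPM without mixed barcodes.

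Immediate early genes, which answer signalling within minutes and also tissue digestion, were higher in 19 of 25 measured, with a median of 0.32. None was over 2-fold apart, against 0.942% of all measured features higher and 0.48% lower. Btg2, which restrains cell division, was at 2084 CPM in unmixed HIR and 1275 CPM in sham members. Jun, a subunit of AP-1, was at 2061 and 1477 CPM, and Gadd45b, a growth arrest gene, at 1041 and 625 CPM. Ier3 stood at 1029 and 957 CPM and Klf10 was lower, at 60.1 and 93.0 CPM. Members' median mitochondrial share was 9.68% in HIR and 9.19% in sham members, and the part of digestion in these levels was not tested.

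Gpx2 (ENSRNOG00000055672), a selenium-dependent glutathione peroxidase, had most of its sham UMIs in mixed barcodes. Over all members it was at 309 CPM in the HIR library and 57.0 CPM in the sham library, 5.43-fold (4.94 to 5.97) higher. Without mixed barcodes it was at 277 and 6.93 CPM, 39.9-fold (29.5 to 55.2) higher. Alveolar type 1 barcodes held Gpx2 at 558 CPM in HIR and 436 CPM in sham, and alveolar type 2 barcodes at 263 and 192 CPM. The other peroxide and NRF2 defence genes had small ratios. Of the other 22 measured in unmixed members, 9 were higher and 13 lower, none over 2-fold, with a median of -0.05. Of all measured features, 0.942% were over 2-fold higher and 0.48% over 2-fold lower. Gpx1 was at 107 and 88.1 CPM, Gpx4, which guards membrane lipids, at 501 and 523 CPM, the NRF2 target Nqo1 at 41.7 and 36.1 CPM, and the superoxide dismutases Sod1 and Sod2 at 201 against 277 CPM and 119 against 80.5 CPM.

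Purine genes split in 2 directions. Slc43a3 (ENSRNOG00000061768), a purine nucleobase transporter, was at 497 CPM in unmixed HIR and 114 CPM in sham members, 4.36-fold (4.01 to 4.75) higher. Xdh (ENSRNOG00000007081), the xanthine dehydrogenase that makes uric acid, was at 209 and 48.7 CPM, 4.29-fold (3.77 to 4.90) higher. The other 9 measured genes of the list were lower. They include Slc29a1, the nucleoside carrier that clears adenosine from blood, at 915 and 1277 CPM, and Pnp, which splits nucleosides, at 266 and 406 CPM. The median of the list was -0.44. Aerocyte barcodes held Xdh at 275 CPM in HIR and 88.8 CPM in sham, and stromal barcodes at 316 and 79.3 CPM.

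Lpl, the lipase that GPIHBP1 holds at the capillary wall, was at 699 CPM in unmixed HIR and 282 CPM in sham members, 2.48-fold (2.34 to 2.63) higher, and Scarb1, the HDL receptor, at 210 and 116 CPM. Gpihbp1 itself stood at 332 and 389 CPM and is a gene of the rule. Of 8 measured genes of lipid uptake beside it, 5 were higher and 3 lower. Of 8 measured genes of the metallothionein, zinc and iron list in unmixed members, 6 were higher and 2 lower, with a median log2 ratio of 0.64. The 4 over 2-fold higher were Mt1, Mt2A, Tf and Lcn2, against 0.942% of all measured features. Mt1 and Tf were also among the genes picked by size of the ratio. Over all members 5 of the 8 list genes were higher and 3 lower, with a median of 0.32. Tf, the iron carrier transferrin, was at 140 and 25.5 CPM, 5.47-fold (4.59 to 6.54) higher, while the ferritin gene Fth1 was at 2769 and 2442 CPM. Other immune barcodes held Tf at 534 and 311 CPM. Fabp4, a fatty acid binding protein, was at 89.0 and 20.01 CPM in unmixed members and at 733 and 480 CPM in those immune barcodes, and the part of free RNA in it was not tested.

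Among the other higher genes, Arl4a, a small GTPase, was at 416 CPM in unmixed HIR and 127 CPM in sham members, and Tinagl1, a basement membrane protein, at 158 and 52.6 CPM.

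Wfdc1, a secreted whey acidic protein, differed most among the 6 general capillary markers, at 420 CPM in unmixed HIR and 2102 CPM in sham members, 5.01-fold (4.77 to 5.26) lower. Other lower genes that kept their size without mixed barcodes were Ldhb, the heart-type lactate dehydrogenase subunit, at 24.2 and 112 CPM (4.61-fold, 3.77 to 5.70, lower), Gchfr, a regulator of tetrahydrobiopterin synthesis, at 25.5 and 107 CPM, and Emp1, a membrane protein, at 48.6 and 155 CPM. Slc6a4, the serotonin transporter, was at 41.1 and 115 CPM, 2.81-fold (2.39 to 3.32) lower, Nrgn at 102 and 254 CPM and Ccnd1, the cyclin of cell cycle entry, at 190 and 463 CPM. Cald1, Fxyd6 and Azin1 had log2 ratios of -1.24, -1.18 and -1.14 in unmixed members. Several other lower genes lost most of their level when mixed barcodes were left out. Clec3b, the plasminogen binding protein tetranectin, was at 36.1 and 156 CPM over all members but at 4.88 and 14.5 CPM without mixed barcodes, and stromal barcodes held it at 404 and 824 CPM. Plac9, Gpc3, Fhl1 and the matrix protein gene Dpt followed the same course, with log2 ratios of -1.70, -1.36, -1.50 and -1.24 over all members and -0.90, -0.37, -0.95 and -0.83 without mixed barcodes. Retnla (-1.62 and -0.27) and S100a4 (-1.58 and -0.40) did too, as did, in part, Ppp1r14a (-1.28 and -0.83) and Dbp (-1.25 and -0.85). The higher genes Cxcl3 (1.51 and 0.96) and Atp1b1 (1.34 and 0.52) lost level likewise. At low levels the added 10 CPM shrinks a log2 ratio. As plain folds, Cxcl3 was 3.07-fold higher over all members and 3.40-fold (2.34 to 5.02) without mixed barcodes, and Dpt 2.52-fold and 2.53-fold (1.82 to 3.59) lower. Over all members and without mixed barcodes, Clec3b was 4.32-fold and 2.97-fold (1.85 to 4.97) lower and S100a4 3.33-fold and 1.44-fold (1.15 to 1.80) lower. Alveolar type 2 barcodes held Cxcl3 at 3283 and 1162 CPM.

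Of 12 measured genes of vascular tone in unmixed members, without Ednrb of the rule, 7 were higher and 5 lower, among them Ptgs1, the constitutive cyclooxygenase, at 49.5 CPM in HIR and 4.41 CPM in sham members, and Adm, the vasodilator adrenomedullin, at 48.8 and 16.5 CPM. Nos3, the endothelial nitric oxide synthase, stood at 46.6 and 39.2 CPM, the converting enzyme Ace at 71.9 and 72.3 CPM and the adrenomedullin receptor Calcrl at 1408 and 1840 CPM. Of the coagulation genes without Vwf of the rule, 4 of 9 were higher and 5 lower. The plasminogen activator Plat was at 270 and 139 CPM, the tissue factor inhibitor Tfpi at 98.1 and 220 CPM, thrombomodulin, Thbd, at 2144 and 2657 CPM and Procr, its partner for protein C, at 53.9 and 37.7 CPM. Leukocyte adhesion genes showed no shared direction, with 3 of 9 higher, Vcam1 at 47.3 and 22.4 CPM and Icam2 at 962 and 1074 CPM.

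The junction list had a median close to level. Of 15 measured junction genes, 5 were higher and 10 lower, with a median of -0.04. None was over 2-fold apart, against 0.942% of all measured features higher and 0.48% lower. A count of none in 15 genes therefore says little. Cdh5 was at 1056 CPM in HIR and 1566 CPM in sham members, Tjp1 at 270 and 277 CPM, and Rapgef3, which strengthens junctions through cyclic AMP, at 106 and 62.6 CPM. The Notch target Nrarp, the transcription factor Sox18 and the growth factor Vegfa lay further apart than the receptors Kdr, Flt1 and Tek. Over all members the receptor gene Unc5b had a log2 ratio of -0.72, against -0.60 for Vegfa. Among receptors, Kdr, the main receptor for VEGF, was at 384 and 420 CPM, Flt1 at 386 and 350 CPM and Tek, the angiopoietin receptor, at 583 and 411 CPM. The Notch target Nrarp was at 41.9 and 93.6 CPM, while Dll4 was at 153 and 164 CPM. Sox18, an endothelial transcription factor, was at 215 and 446 CPM, and Sox17 at 482 and 398 CPM. Vegfa was at 438 and 728 CPM and the coreceptor Eng at 1304 and 1893 CPM. By list, 7 of 15 endothelial transcription factors were higher and 8 lower, 5 of 11 genes of VEGF signalling and angiogenesis, counted without Apln and Aplnr of the rule, were higher and 6 lower, 4 of 10 Notch genes were higher and 6 lower, and 4 of 13 BMP and TGF-beta genes were higher and 9 lower. Apln, a gene that the rule used, was at 89.9 CPM in unmixed HIR and 276 CPM in unmixed sham members.

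Genes of the basement membrane and matrix went in both directions. Col4a3 was at 99.2 CPM in unmixed HIR and 37.5 CPM in sham members and Col4a2 at 121 and 64.9 CPM, whereas Col15a1 was at 138 and 322 CPM, Hmcn1 at 185 and 391 CPM and the protease Htra1 at 34.8 and 102 CPM. Of 21 measured genes 10 were higher and 11 lower. Chaperone genes leaned lower: 14 of 19 of the unfolded protein response, with Calr at 401 and 689 CPM and Hsp90b1 at 242 and 399 CPM, and 12 of 13 of the heat shock list, with Hspa8 at 584 and 999 CPM. The medians were -0.23 and -0.18. No chaperone gene was over 2-fold apart, against 0.942% of all measured features higher and 0.48% lower. The caveolar genes Cav1 (1482 and 1356 CPM) and Cavin2 (501 and 753 CPM) belong to a list of which, without the rule gene Plvap, 2 of 9 measured genes were higher and 7 lower, with a median of -0.33.

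Of 8 measured cell cycle genes in unmixed members, 3 were higher and 5 lower, with Cdkn1a over 2-fold higher and Ccnd1 over 2-fold lower. Of 13 apoptosis genes 4 were higher and 9 lower, none of them over 2-fold, with the death receptor Tnfrsf1a at 143 CPM in unmixed HIR and 94.6 CPM in sham members. Of 17 genes of hypoxia and glycolysis 11 were higher and 6 lower, with Adm and Ndrg1 over 2-fold higher and Ldhb over 2-fold lower. Of all measured features in unmixed members, 0.942% were over 2-fold higher and 0.48% over 2-fold lower. Epas1, the hypoxia factor of endothelium, was at 3221 and 3203 CPM, and Ldha at 319 and 382 CPM beside the lower Ldhb.

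Interferon and antigen presentation genes leaned higher. Of the interferon list, 12 of 15 were higher, with a median of 0.32. Oas1a, which senses double-stranded RNA, was at 96.3 CPM in unmixed HIR and 36.9 CPM in sham members, Ifitm3 at 1332 and 817 CPM, and Isg15, a ubiquitin-like modifier, at 149 and 98.3 CPM. For MHC genes 10 of 11 were higher. Class II genes such as Cd74 (199 and 112 CPM in unmixed members) were high in leukocytes, with Cd74 at 2429 and 3542 CPM in other immune barcodes. Over all members its log2 ratio was 0.15. After thinning to 1000 UMIs, Cd74 was seen in 6.88% of unmixed HIR and 6.06% of unmixed sham members, and the part of free RNA in class II levels was not tested.

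Of 12 measured chemokines and cytokines, 6 were higher and 6 lower. Il33, an alarmin, stood at 572 CPM in unmixed HIR and 640 CPM in sham members, and Cxcl12 at 53.3 and 85.4 CPM. The neutrophil attractant Cxcl2 and Il1b were scarce in unmixed members and far higher in leukocytes. Cxcl2 was at 63.0 CPM in unmixed HIR members and 14.0 CPM in sham members, against 2020 and 1754 CPM in other immune barcodes. Il1b was at 41.9 and 8.98 CPM, against 1728 and 755 CPM there. Cxcl3, at 22.0 and 6.46 CPM in unmixed members, had its high level elsewhere. Other immune barcodes held it at 113 and 78.7 CPM and alveolar type 2 barcodes at 3283 and 1162 CPM. Markers of other cells were seen in unmixed members at low levels. Summed over their lists, neutrophil markers stood at 488 CPM in HIR and 54.8 CPM in sham members, macrophage and monocyte markers at 1281 and 544 CPM with all 8 measured ones higher, and alveolar type 2 markers at 1946 and 1089 CPM. Fibroblast markers summed to 114 and 188 CPM and mural markers to 78.6 and 113 CPM. The part of this RNA in the ratios above was not tested. The neutrophil gene S100a8 stood at 230 and 20.2 CPM in unmixed members and 22025 and 3113 CPM in other immune barcodes, and with each barcode thinned to 1000 UMIs it was seen in 23.1% of HIR and 2.19% of sham members and in 25% and 3.66% of B cell barcodes.

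Thinning to 1000 UMIs asked how many members held a gene, using 1309 HIR and 1601 sham unmixed members. Gpx2 was seen in 22.1% of HIR members (19.9 to 24.4) and 0.937% of sham members (0.525 to 1.54), against 0.26% and 0.731% of B cell barcodes. Cebpd was seen in 65.3% and 27.0% of members, against 6.51% and 2.93% of B cell barcodes, Slc43a3 in 39.0% and 10.2% (2.86% and 0.366%), and Lpl in 46.8% and 24.4% (2.34% and 4.02%). Wfdc1 was seen in 32.2% and 81.4% of members. Nfkbia was seen in 84.95% and 37.1% of members and in 65.1% and 62.3% of B cell barcodes. Unthinned, Gpx2 was seen in 39.3% and 2.33% of unmixed members.

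**Figure D4:**
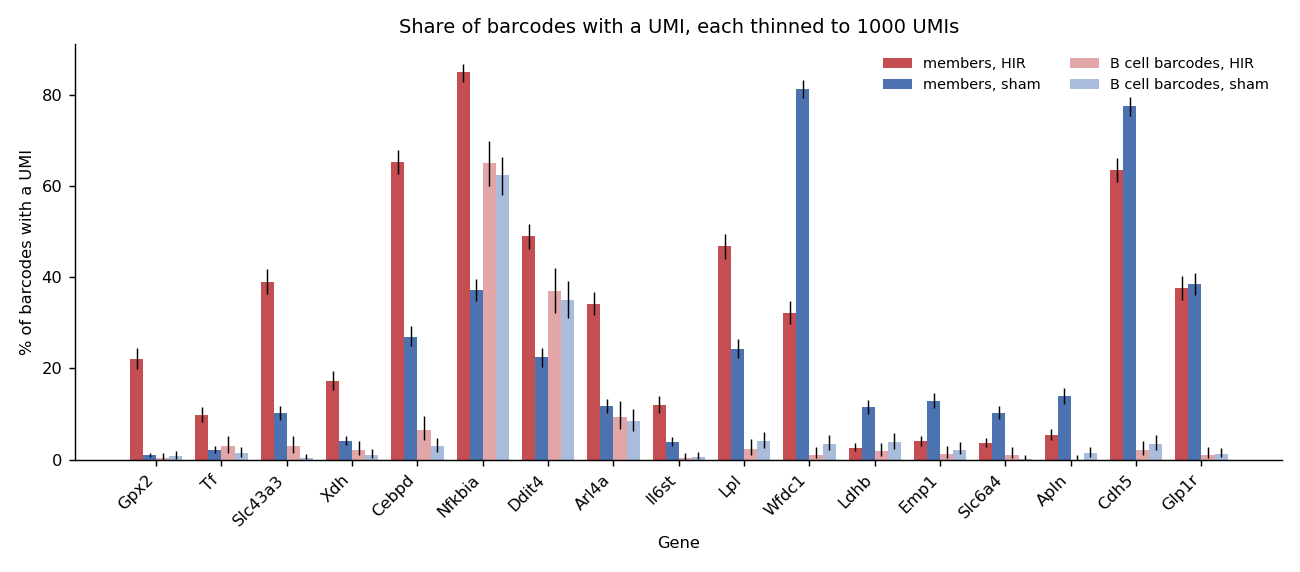
Share of barcodes with a UMI of each gene after thinning to 1000 UMIs, in unmixed general capillary members (dark) and B cell barcodes (light), HIR left of sham. Bars show 95% intervals. Gpx2, Slc43a3 and Cebpd were seen in more HIR members than sham members and rarely in B cell barcodes, while Wfdc1 was seen in 32.2% of HIR and 81.4% of sham members.

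In thinned HIR members, Gpx2 was seen in 23.1% of those with a Cebpd UMI and 22.0% of those without, and Slc43a3 in 36.9% and 37.0% of the same members. By depth, the log2 ratio in unmixed members was 3.997 at 1000 to 3000 UMIs and 4.10 above that for Gpx2, 2.15 and 1.95 for Slc43a3, and -2.45 and -2.27 for Wfdc1. For Tf it differed more by depth, at 1.51 and 2.34.

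**Figure D5:**
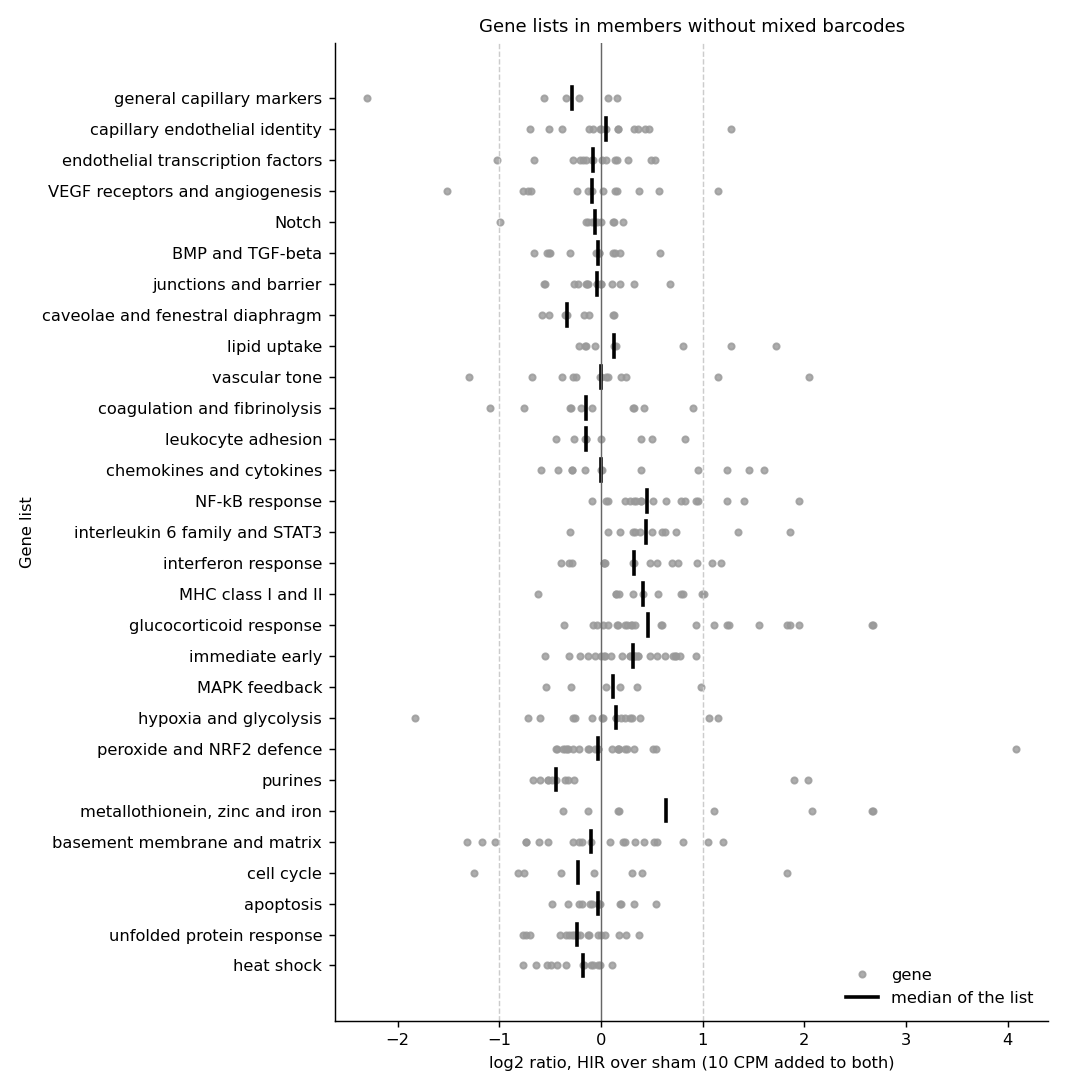
Log2 ratio, HIR over sham, of each measured gene (grey points) in lists with at least 5 measured genes, in members without mixed barcodes; black bars are medians and dashed lines mark 2-fold; rule genes are included. The medians of the glucocorticoid, NF-kB and interleukin 6 lists lay to the right of 0 and that of the purine list to the left, with Slc43a3 and Xdh apart from it.

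Many of these ratios lay on the same side in the other vessel types, which share the libraries and the animals, so these values stand side by side only. Aerocyte barcodes had log2 ratios of 1.63 for Nfkbia, 1.24 for Slc43a3 and 1.53 for Xdh, and venous or large vessel barcodes had 1.74, 1.33 and 2.02. For Gpx2 the values were 1.18 and 0.13 over aerocyte and venous barcodes that include mixed ones. For Tf they were 1.15 and 3.73, for Il6st 0.51 and 1.29 and for Wfdc1 -1.63 and -1.27. Over 2-fold higher were 65 of 6013 features in aerocyte barcodes (1.08%) and 114 of 5572 in venous or large vessel barcodes (2.05%), and over 2-fold lower were 44 (0.732%) and 88 (1.58%). The difference between vessel types was not tested.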

How the data were processed

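Single lung cells were profiled in 2 libraries, 1 per group. Per the labels' protocols, digested lung cells were captured in droplets; the submitters' processing notes name Seurat 4.0, STAR, Cell Ranger 6.0 and mm10, while the file headers name cellranger 5.0.0 and all 32883 features are rat identifiers. The deposited matrices hold raw UMI counts per gene and barcode, not normalized, with at least 500 UMIs per barcode. UMIs were summed over members and given as CPM; ratios have exact 95% intervals, log2 ratios add 10 CPM. Doublets were called with Scrublet in scanpy 1.11.5 (0.8% per 1000 barcodes). Called means over 2-fold; no test was run. The ratio intervals were tried on simulated counts, drawn independently for each gene from the sham members' means. Such counts leave out any clumping of UMIs within barcodes, so that trial says nothing of error beyond counting.

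Genes are named by rule: the 12 furthest apart in each direction at 100 CPM or more in a library and 50 UMIs over both, an interval without 1, at least 5% of the level of the compared group with the most, and no marker of another cell type; the 12 with the largest smallest fold over aerocyte and venous barcodes at 200 CPM or more; and list members. The same rule over unmixed members added others. List members under 100 CPM in both libraries were named after their values were seen. Of the features that met the rule, 2 are not reported here, so the named genes are not the complete ranking. Members, lists and the rule were chosen with earlier results of these data known. 41 lists held 658 genes, of which 640 were found. Alternatives were 17 for expression and 8 for the share, with edgeR 4.0.16 for TMM factors. No sequence is printed, since no rat sequence table was used here.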

Additional observations from a re-analysis of the deposited data

Results flagged for a closer look

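In 7 of 89 comparisons, over 46 named genes, the log2 ratio of HIR over sham had the opposite sign in general capillary members and in another vessel type, with both intervals leaving out 1. The difference was not tested, and each rests on 1 library per group. Tinagl1, a matricellular protein of basement membranes, was at 1.17 in members and -0.36 in aerocyte barcodes. Against venous or large vessel barcodes, Acer2 was at -0.15 in members and 1.14 there, Gja4 at -0.56 and 0.98, Eng at -0.52 and 0.46, Calcrl at -0.38 and 0.16, Nrgn at -1.20 and 0.44, and AC141102.1 at -0.20 and 0.29. In venous or large vessel barcodes the median log2 ratio over all features was 0.16, against -0.00 in members. Of their capillary endothelial identity genes, 13 of 14 were higher in HIR and 1 lower, with a median of 0.64. Of their junction genes, 16 of 17 were higher and 1 lower, with a median of 0.44. Fibroblast markers summed there to 8490 CPM in HIR and 17866 CPM in sham. The part of this make-up in the opposite signs was not tested.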

How the results depend on the processing

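The ratio of the members' share (HIR over sham) was 0.909 (0.857 to 0.965). It was 0.761 at no more than 10% mitochondrial UMIs and 0.967 among barcodes without Ptprc, and stayed within its interval under the other 6 alternatives. The 51 features over 2-fold higher were 78 by the mean of per-barcode CPM, 87 with 1 CPM added, 14 with 50 CPM added and 21 at 100 CPM or more. The 67 lower ones were 31 without called doublets, 28 without mixed barcodes (a choice made after seeing the data), 42 by the mean of per-barcode CPM, 12 with 50 CPM added, 31 at 100 CPM or more, and 40 without mixed barcodes and thinned. The higher share of both directions was 43.2%, against 67.7% without doublets, 66.3% without mixed barcodes, 65.0% per barcode mean, 60.5% at 1000 to 3000 UMIs, 60.8% unmixed and thinned, 55.4% thinned and 53.8% with 50 CPM added. Of 62 named or listed genes over 2-fold apart, 8 changed sign under an alternative, and of the 387 others 145 did, Kdr and Tsc22d3 among them. Of those over 2-fold, log2 ratios changed sign without called doublets for S100a4 (0.13), Col3a1 (0.067), Fn1 (0.44), Hsd11b1 (0.39) and Tcf21 (0.23). They did so without mixed barcodes for Hsd11b1 (0.068), and at 1000 to 3000 UMIs for S100a4 (0.23), Fn1 (0.15), Gucy1b1 (0.038) and Hsd11b1 (0.0089). They also did so without an Aplnr UMI, mixed barcodes included, for Cxcl3 (-0.20) and Lcn2 (-0.79), and unmixed and thinned for S100a4 (0.062). The cause was not tested. Members without a Plvap UMI numbered 4 in HIR and 0 in sham and were not run. With 1 library per group, differences between animals, operations and library preparations cannot be told apart from HIR. No paired analysis was possible, since there was 1 library per group and no label pairs them.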

Other observations

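General capillary members also held several genes that serve as markers of other cell types. Lyve1, a hyaluronan receptor of lymphatic vessels, stood at 1750 CPM in unmixed HIR and 1147 CPM in unmixed sham members. Hopx, a gene of alveolar type 1 cells, was at 1251 and 752 CPM and was seen in 59.5% and 40.0% of thinned members, against 7.81% and 7.68% of B cell barcodes. Clic5 was at 274 and 200 CPM and Prx, a scaffold protein, at 285 and 154 CPM. Amigo2, listed with the large vessels, was at 61.0 and 287 CPM. Hemoglobin and other red cell genes summed to 5982 and 8051 CPM.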
